A study of Rattus norvegicus with 2 samples.

Results

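The genes described here encode anthrax toxin receptors and tumour endothelial markers, cell surface proteins of vessels and stroma. The members were 5 named genes, Antxr1, Antxr2, Plxdc1, Plxdc2 and Cd248, and 4 of them had an array feature that the platform annotation maps to exactly 1 gene symbol, out of 18166 genes measured that way. The gene set was chosen by family and with the deposited levels of these arrays known, and a gene's feature was selected on the highest mean level over the colonies. Each of the 4 had 1 feature, so that selection made no difference. Antxr2 is not analysed here.

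The cells were 2 single colonies, No.4 and No.8, of C6, a rat glioma line, each hybridised to 1 whole-transcript array. Both colonies carry the same description, as undifferentiated glioma cells grown in medium with 10% serum, and the same treatment text of CHIR99021 at 20 µM and forskolin at 100 µM for 35 days. CHIR99021 inhibits the kinase GSK3 and so activates Wnt signalling, and forskolin raises cyclic AMP. Whether the RNA was taken before or after that treatment is not stated, and the colony number is all that separates the groups. There is no replicate, so no test, error or p-value is given, and a lasting difference between the colonies cannot be told apart from a difference between cultures or hybridisations.

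Antxr1 (also called TEM8) and Antxr2 are membrane receptors with an extracellular von Willebrand type A domain. They bind matrix proteins such as collagens and laminin, and the protective antigen of anthrax toxin uses the same domain to enter cells. Plxdc1 (TEM7) and Plxdc2 are related transmembrane proteins with a plexin-like domain, and both have been described as receptors for the secreted anti-angiogenic factor PEDF. Cd248 (TEM1, endosialin) is a C-type lectin receptor known from pericytes, fibroblasts and tumour stroma. Several of these genes were first listed because tumour vessels had more of their transcripts than normal vessels.

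Antxr1 and Plxdc2 were far higher in colony No.8, where they stood clear of the dim end of the array, while in colony No.4 both lay among the dim features. Plxdc1 and Cd248 were dim in both colonies and nearly equal. A gene was counted as past the floor when its level reached 4.33 log2 units, the median of all deposited values, in at least 1 colony, and 11069 genes were. Of these, 5.47% differed by 2-fold or more, 2.91% (322 genes) towards No.8 and 2.57% (284 genes) towards No.4. Of the 4 members, 2 were past the floor, and both were among those higher in No.8. The members were chosen with these differences known, so nothing is read from that count.

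**Figure D1:**
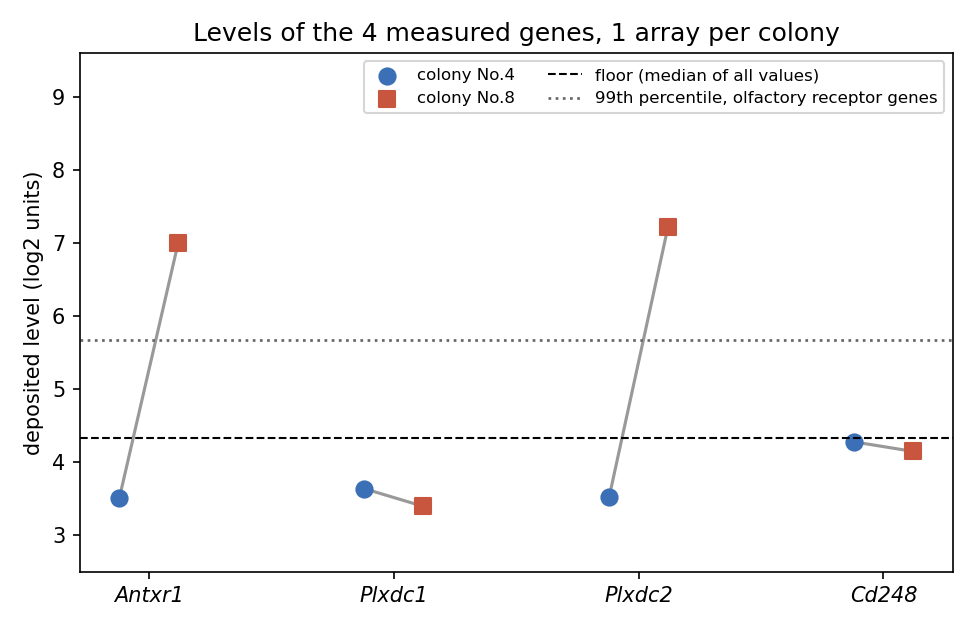
Deposited level in log2 units (vertical axis) of each of the 4 measured genes (horizontal axis) in colony No.4 (circles) and colony No.8 (squares), 1 array each, so there are no error bars. Antxr1 and Plxdc2 lie under the dashed floor of 4.33 in No.4 and at 7.00 and 7.22 in No.8, above the dotted line at 5.67, whereas Plxdc1 and Cd248 lie under the floor in both.

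Among the toxin receptors, Antxr1 had a level of 3.51 in colony No.4 and of 7.00 in colony No.8, a difference of 3.49 log2 units. Colony No.4 was under the floor and colony No.8 well above it, so the fold is a bound. With the dim level set to the floor, the fold was at least 6.38 in favour of No.8. The array also held Antxrl3, a gene whose symbol marks it as similar to the anthrax toxin receptors, which was looked up after the values had been seen. Antxrl3 was at 3.30 in No.4 and 3.18 in No.8, under the floor in both colonies.

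In the plexin domain pair, Plxdc2 had a level of 3.53 in colony No.4 and of 7.22 in colony No.8, a difference of 3.69 log2 units. With the dim level set to the floor, Plxdc2 was higher in No.8 by at least 7.41-fold. Its relative Plxdc1 was at 3.64 in No.4 and 3.40 in No.8, a difference of -0.24. Both Plxdc1 levels were under the floor, so no fold is given. The 2 related genes thus had different patterns over the colonies, 1 crossing the floor and the other not reaching it.

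Cd248 had a level of 4.28 in colony No.4 and of 4.15 in colony No.8, a difference of -0.13. It lay just under the floor in both colonies, and no fold is given. Antxr1 and Plxdc2 therefore passed the floor through colony No.8 alone, and Plxdc1 and Cd248 in neither colony.

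Genes of olfactory receptors, which are thought to be silent in glial cells, served as a guide to how bright a feature can be without expression. Over 1184 such genes in both colonies, the median level was 2.74, the 95th percentile 4.43 and the 99th percentile 5.67. In colony No.4 the level of Antxr1 was above 82.9% of these olfactory levels and that of Plxdc2 above 83.3%. In colony No.8 Antxr1 was above 99.8% and Plxdc2 above 99.9% of them. Plxdc1 was above 85.5% of the olfactory levels in No.4 and above 79.8% in No.8, and Cd248 above 93.5% and 92.5%. All 6 readings under the floor thus lay inside the range of olfactory receptor genes, and the readings of Antxr1 and Plxdc2 in colony No.8 lay near its top. With levels under 5.67 counted as 5.67, Antxr1 was at least 2.51-fold and Plxdc2 at least 2.92-fold higher in No.8, so both still passed 2-fold. No detection call was used here, and a level under the floor is not shown to be absence of the transcript. In RNA of whole cultures, fewer cells with a transcript and less transcript per cell cannot be told apart.

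The genes with the nearest pair of levels are given as a description only. Nearness was the Euclidean distance between the pairs of levels over 2 arrays, and it supports no likeness of the genes: levels of different features depend on their probes, the No.4 levels were under the floor, and the members were chosen with these values known. The distance between Antxr1 and Plxdc2 was 0.22, the smallest for both. The next nearest to Antxr1 were Prss23, a serine protease gene (3.52 and 6.67 in No.4 and No.8), at a distance of 0.33, and Pros1, which encodes the anticoagulant protein S (3.90 and 7.13), at 0.41. Nearest to Plxdc2 after Antxr1 were Fmr1nb, a cancer-testis gene (3.86 and 7.34), at 0.36, and Pros1 at 0.39. Antxr1 and Plxdc2 were among 13 genes that lay under the floor in No.4 and above 6.37, the upper quartile of all values, in No.8, a limit set after the values had been seen. The mirror pattern, under the floor in No.8 and above the upper quartile in No.4, was found for 7 genes. Another of the 13 was Fgf1, a growth factor gene, at 3.97 and 6.81.

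**Figure D2:**
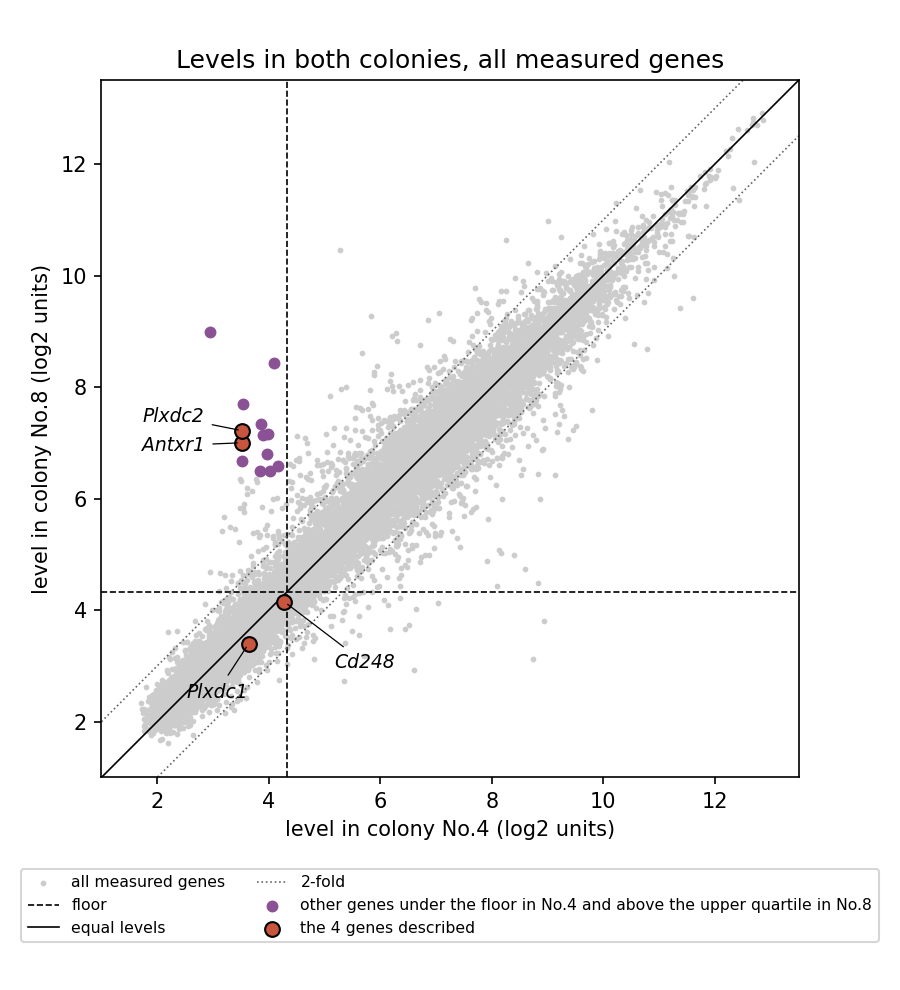
Level in colony No.4 (horizontal axis) against level in colony No.8 (vertical axis), both in log2 units, for the 18166 measured genes (grey), the 4 genes described (outlined) and the other genes that were under the floor in No.4 and above the upper quartile, 6.37, in No.8. Antxr1 and Plxdc2 lie side by side above the upper dotted 2-fold line, at 7.00 and 7.22 in No.8, and Plxdc1 and Cd248 lie near the line of equal levels in the dim corner.

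Of the nearest measured genes in chromosome order, none past the floor around Antxr1 or Plxdc2 reached 2-fold. Over all genes past the floor only 5.47% did, so nothing is read from a count of 0 among so few genes. Neighbours under the floor in both colonies cannot show whether they shared the difference. In the order of the RefSeq gene table of assembly GRCr8, Antxr1 lies on chromosome 4 between Gfpt1, a hexosamine pathway enzyme gene, and Gkn2, which encodes a stomach peptide. Gfpt1 was at 9.09 in No.4 and 9.03 in No.8, and Gkn2 was under the floor in both. Over the 6 nearest measured genes, 3 on each side of Antxr1, the differences ran from -0.46 to 0.63, and 0 of the 3 past the floor reached 2-fold. Plxdc2 lies on chromosome 17 between Malrd1 and Nebl, both under the floor in both colonies. The 6 genes around Plxdc2 differed by -0.75 to 0.23, and again 0 of the 3 past the floor reached 2-fold. The 6 genes around Cd248 on chromosome 1 differed by -0.17 to 0.23, with 0 of 5 past the floor at 2-fold. Around Plxdc1 on chromosome 10 the differences ran from -1.98 to 0.46. There 1 of 4 genes past the floor, Stac2, was 2-fold apart, at 9.18 in No.4 and 7.19 in No.8.

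Of the other genes named as tumour endothelial markers in the same screen, 2 of 4 were measured here. Tns3 (TEM6), which encodes a focal adhesion protein of the tensin family, was at 7.78 in colony No.4 and 8.39 in No.8, a difference of 0.62. Rasd2 (TEM2), a Ras-like GTPase gene, was under the floor in both colonies, at 3.95 and 4.13. Neither reached 2-fold, and Arhgef17 and Adgra2 are not analysed here.

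Genes of proteins known to bind the members were listed with earlier results of these data known, so nothing is read from their count by direction. Of 14 measured genes on this list, 13 were higher in No.8 and 1 was lower, with a median difference of 0.74. Over all 18166 measured genes, 9489 were higher in No.8 and the median difference was 0.03. Among the listed genes higher in No.8, Nid1 was under the floor in both colonies. Col1a2, Col6a3 and Mmrn2 have no direction counted from 5.67. At 2-fold, 1 of the 13 genes past the floor was higher in No.8 and 1 higher in No.4. The gene higher in No.8 was Col1a1, a chain of collagen I, which Antxr1 and Cd248 bind, with 8.25 in No.4 against 10.64 in No.8 (5.22-fold). The gene higher in No.4 was Col6a2, a chain of collagen VI, another ligand of Antxr1, with 8.40 in No.4 against 7.35 in No.8 (2.07-fold). Col6a3, the chain of collagen VI from which the fragment endotrophin is cut, was at 3.69 in No.4 and 4.67 in No.8. Both Col6a3 levels were under 5.67, and the No.4 level was under the floor. Counted from the floor, Col6a3 was at least 1.27-fold higher in No.8, and counted from 5.67 it has no direction.

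Col6a2 is thus the 1 collagen VI chain with a direction above background, and Col6a1 is not analysed here. Col4a1, a basement membrane collagen chain, was at 5.51 in No.4 and 6.46 in No.8, a difference of 0.95 and just under 2-fold. Serpinf1, which encodes PEDF, the ligand described for both Plxdc proteins, was at 9.81 in colony No.4 and 10.74 in No.8, a difference of 0.94. For the Plxdc proteins, the ligand gene was therefore bright in both colonies, while Plxdc2 passed the floor in No.8 alone. The fibronectin gene Fn1, a ligand gene of Cd248, was at 11.17 and 12.04. Lgals3bp, another Cd248 ligand gene, was at 8.26 and 9.13. Mmrn2, the vessel matrix partner of Cd248, was at 4.68 and 5.33, both under 5.67. Nid1, described as a partner of Plxdc1, was under the floor in both colonies, at 3.52 and 3.92.

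The route by which anthrax toxin enters and acts was measured for all 18 listed genes, and all 18 were past the floor. None reached 2-fold. In No.8, 10 of them were higher and 8 lower, and their median difference was 0.13. Furin, the protease that activates protective antigen, was at 6.96 in No.4 and 7.26 in No.8. The Wnt co-receptor gene Lrp6, which has been linked to toxin uptake, was at 8.12 and 8.50, and Lrp5 at 8.03 and 7.31. Of the lethal factor targets, Map2k1 was at 7.92 and 8.26 and Map2k2 at 8.59 and 8.82. The kinase gene Map2k6 was at 6.55 in No.4 and 5.86 in No.8, a difference of -0.69. Arrb2, also on the list, was at 6.37 in No.4 and 7.02 in No.8, a difference of 0.65. The largest difference on the list was that of Nlrp1a, an inflammasome sensor gene, at 5.65 in No.4 and 4.70 in No.8 (-0.95), both under 5.67. After a loess correction on level, Nlrp1a just passed 2-fold, the 1 gene of the list to do so. The difference of Antxr1, also as a bound from the floor, was larger than that of any of the 18 genes. Antxr1 was chosen with its difference known, so nothing is read from that order.

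Genes that share a protein domain with the members had mixed patterns. Of 9 plexin genes, 4 were measured and 2 of them had 2-fold or larger differences towards colony No.8. Over all genes past the floor that share was 2.91%. The list was chosen with earlier results known, so nothing is read from the count. Plxnd1, a semaphorin receptor gene of endothelial cells, read 5.17 in No.4 and 7.26 in No.8. The fold was 4.25, or at least 3.01 with the dim level set to 5.67. Plxnb3 was at 4.31 in No.4, under the floor, and 5.90 in No.8. Its fold was at least 2.97 from the floor but at least 1.17 from 5.67. Plxna2 was 0.45 lower in No.8, at 5.12 and 4.68, and Plxna3 was at 6.06 and 6.17.

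Integrin alpha chains with an inserted A domain like that of Antxr1 were measured for 8 of 9 genes, and only Itga1, a collagen receptor gene, and Itga10 were past the floor. Itga1 was bright in both colonies, at 10.21 in No.4 and 10.37 in No.8, and Itga10 was at 4.36 and 4.32. Of the 3 relatives of Cd248 in the C-type lectin group, Thbd and Clec14a were under the floor in both colonies. Cd93, the third, read 8.90 in No.4 and 6.87 in No.8, and was 4.10-fold higher in No.4. Cd93 therefore differed in the direction opposite to Antxr1 and Plxdc2.

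**Figure D3:**
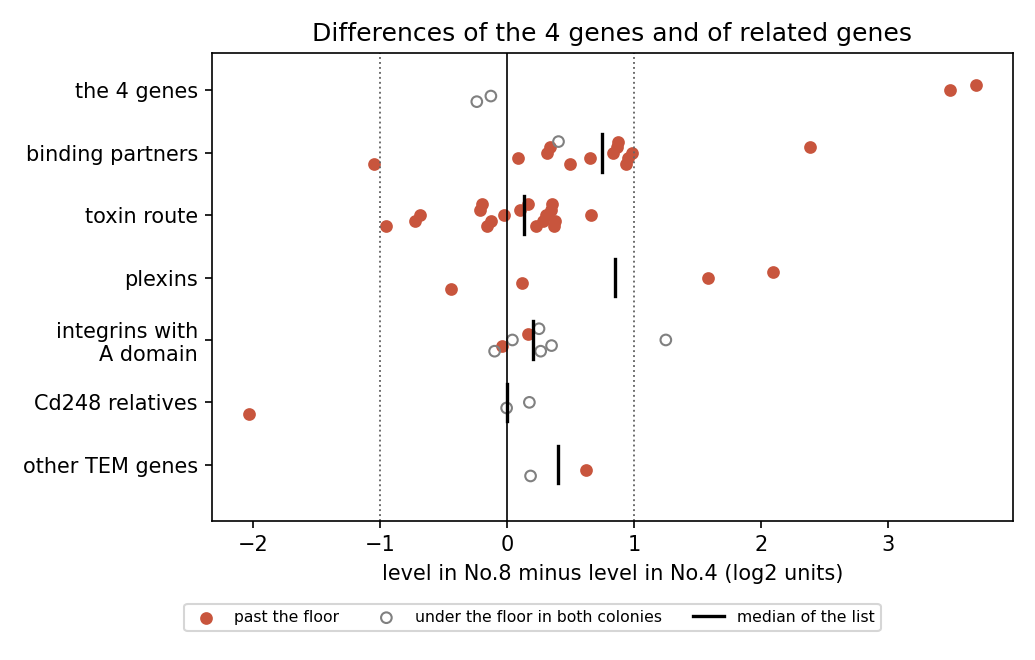
Level in No.8 minus level in No.4 in log2 units (horizontal axis) for the 4 genes described and 6 lists of related genes (rows). Filled points are genes past the floor and open points genes under it in both colonies. Black bars are list medians (not drawn for the 4 genes) and dotted lines 2-fold. As drawn, Antxr1 and Plxdc2 at 3.49 and 3.69 lie to the right of all related genes, Col1a1 at 2.38 being the next. That order did not hold with levels under 5.67 counted as 5.67. Antxr1 then came to 1.33 and Plxdc2 to 1.54, under Col1a1 at 2.38 and Plxnd1 at 1.59.

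The members are known from vessels and stroma, so markers of those cell types were read beside them, in a culture labelled as glioma cells. The part of such cells in the differences of Antxr1 and Plxdc2 was not tested. The endothelial list had 12 of 15 genes measured and 5 past the floor. Cdh5, the endothelial cadherin gene, was under the floor in both colonies, at 4.02 and 4.12, as were Vwf, Tie1, Erg, Emcn, Robo4 and Sox17. Pecam1 and Kdr are not analysed here. Flt1, which encodes a VEGF receptor, was at 7.44 in No.4 and 6.70 in No.8. Tek, the angiopoietin receptor gene, read 4.84 in No.4 and 5.97 in No.8, which is 2.19-fold, or at least 1.23-fold from 5.67. The summed level of the endothelial list on the linear scale was 366 in No.4 and 342 in No.8, and 193 and 238 without Flt1, its brightest gene. Such sums add features with different probes and are set by their brightest genes.

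Among pericyte and mural cell markers, 6 of 12 measured genes were past the floor, and 3 of them differed by 2-fold or more towards colony No.8 and 0 towards No.4. Over all genes past the floor these shares were 2.91% and 2.57%, and the list was chosen with earlier results known. Cspg4, also a pericyte marker, was counted in the glial list and was higher in No.4, at 6.37 against 4.62. The adhesion gene Mcam read 7.93 in No.4 and 9.35 in No.8 (2.68-fold). Pdgfrb, a PDGF receptor gene of pericytes, was at 6.48 and 7.55 (2.10-fold). Tagln, a smooth muscle actin-binding protein gene, was at 3.92 and 5.45, both under 5.67, and it has no direction counted from there. Notch3 was at 4.61 in No.4 and 4.42 in No.8, lower in No.8. Rgs5, a defining pericyte marker, was at 4.48 in No.4 and 4.28 in No.8, near the floor, and Abcc9, Kcnj8 and Anpep were under it in both colonies. The median difference over the 12 genes was 0.30, with 6 of them under the floor in both colonies. The summed linear level of this list was 489 in No.4 and 1035 in No.8, and 246 and 382 without Mcam.

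Of 10 fibroblast markers, which share Col1a1 and Col1a2 with the binding partners, 7 were past the floor, and Col1a1 alone reached 2-fold. Pdgfra was at 10.24 in No.4 and 9.53 in No.8, and Fbln1 at 8.51 and 8.37. Col1a2 was at 4.57 in No.4 and 5.06 in No.8 and Col3a1 at 4.61 and 5.08. Both were higher in No.8, with all these levels under 5.67. Of the 7 genes past the floor, 3 were higher and 4 lower in No.8. Dcn, Lum and Fap, defining fibroblast genes, were under the floor in both colonies. The summed linear level of this list was 4466 in No.4 and 5260 in No.8, with S100a4 giving 55.7% and 47.1% of it. Without S100a4, its brightest gene, the sums were 1979 in No.4 and 2785 in No.8, higher in No.8. Without Col1a1, the gene with the largest rise, they were 4161 and 3669, lower in No.8. Leaving out the largest riser favours No.4 by construction, so the direction of the sum depends on the gene left out. Macrophage and microglia markers had 1 of 8 genes past the floor, Cd68, at 4.62 and 4.07. Ptprc, the leukocyte antigen gene CD45, was under the floor in both, and the summed linear level of the list was 101 in No.4 and 91.4 in No.8.

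Glial markers fitted the label in part. Vim, Nes, S100b and Sox2 were well above the floor in both colonies, with S100b at 8.24 in No.4 and 8.46 in No.8 and Sox2 at 9.08 and 8.44. Gfap, the astrocytic filament gene, read 4.11 in No.4, under the floor, and 5.17 in No.8. Its fold towards No.8 was 2.07 in the deposited values, so Gfap was called. Counted from the floor the fold was at least 1.79, short of 2-fold, and counted from 5.67 it has no direction. The genes Slc1a3, Sox9 and Fabp7 were under the floor in both. At least 2-fold differences in No.4's favour were seen for Olig2 (6.36 and 4.22), Cspg4 (6.37 and 4.62) and Gja1 (7.99 and 6.86). Counted from 5.67, Olig2 and Cspg4 no longer reached 2-fold. Cspg4, which encodes NG2, is a marker of pericytes as well as of glial precursors, and it differed in the direction opposite to Mcam and Pdgfrb. The summed linear level of the glial list was 8637 in No.4 and 8617 in No.8, of which Vim alone gave 70.5% and 72.2%, and 2550 and 2394 without it.

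**Figure D4:**
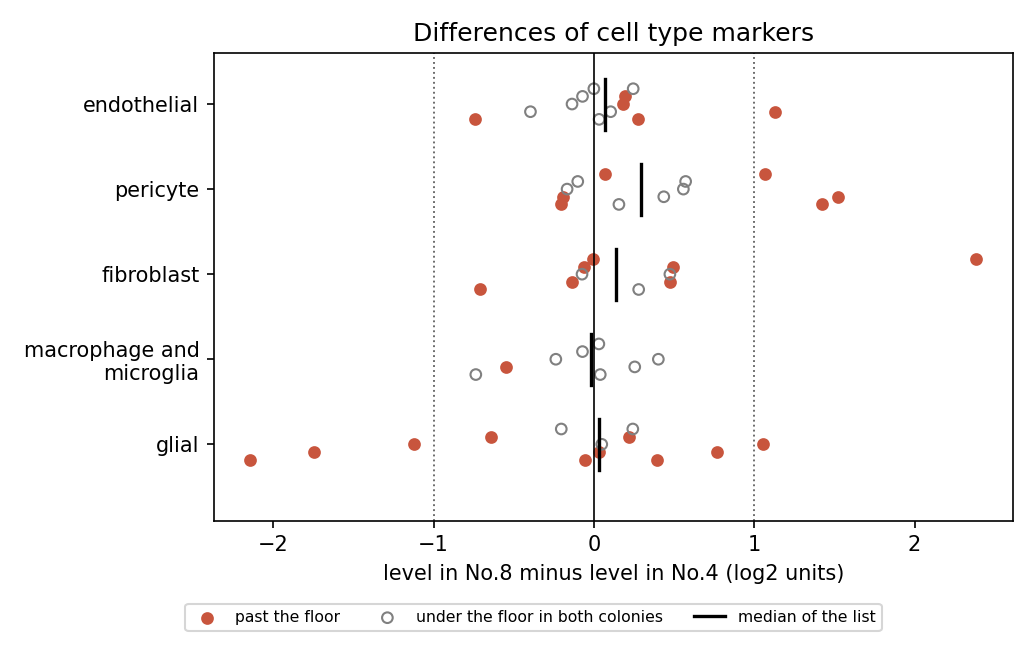
Level in No.8 minus level in No.4 in log2 units (horizontal axis) for markers of 5 cell types (rows). Filled points are genes past the floor and open points genes under it in both colonies. Black bars are list medians and dotted lines 2-fold. The 3 genes of the pericyte row past 2-fold lie to the right, while Cspg4, also a pericyte marker, is in the glial row. Most endothelial and macrophage markers are open points.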

How the data were processed

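Total RNA of 2 C6 colonies was labelled for whole-transcript arrays, per the labels' protocols. The deposited table holds 1 value for each of 36685 features and each colony, taken as the authors' deposited log2 level. Base 2 was inferred from their range, up to 13.3, while the sources used here name no background correction, normalization, software or genome build. Quartiles nearly matched (medians 4.34 and 4.31), so nothing was rescaled.

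The platform annotation gave 18511 features exactly 1 symbol, 575 several and 17599 none; only the first were used, and the feature with the highest mean level stood for a gene. Differences are No.8 minus No.4. A call needed 2-fold and a level of 4.33 in at least 1 colony. Bounds raise dim levels to 4.33 or 5.67. The text names all members, up to 4 genes with the largest differences per list, those 2-fold apart, defining markers, 3 nearest genes per called member, and others for their role, the last picked with values known. Members and lists were chosen with earlier results of these data known. The steps were tested on simulated data in which only genes with mean levels above those of Antxr1 and Plxdc2 were changed. That test does not cover genes under the floor in No.4. Alternatives changed the scaling, floor, offset, feature and fold. With 1 array per colony, the number of arrays limits the precision. The RefSeq table matched 18053 of 18166 genes and was used for gene order; the promoter table matched 0 of the 4 measured members. Python 3.11.15, pandas 2.3.3 and statsmodels 0.14.6 were used.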

Additional observations from a re-analysis of the deposited data

How the results depend on the processing

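Of 12 alternatives, 6 could change the differences of Antxr1 and Plxdc2; the other 6 left them untouched by construction, 4 being floors and 2 choices among features of genes that have 1. Under the former, both genes kept a 2-fold or larger difference towards No.8. With the reported values included, the differences ranged from 1.33 to 3.49 log2 units for Antxr1 and from 1.49 to 3.70 for Plxdc2. The smallest values came from counting both levels from 5.67 (1.33 and 1.54) and from adding 64 on the linear scale (1.35 and 1.49), which by their construction shrink differences that start from a dim level. At 4-fold both remained called in deposited values. Plxdc1 ranged from -0.27 to 0 and Cd248 from -0.19 to 0, and neither was called under any alternative. Over all genes, those higher in No.8 and in No.4 were 322 and 284 in the values as reported. They were 1093 and 878 at 1.5-fold, 59 and 37 at 4-fold, and 87 and 80 with the offset of 64. They were 214 and 214 with a floor at the upper quartile, 184 and 196 when dim levels were counted from 5.67, 300 and 306 after median centring and 291 and 307 after loess, so the slight excess towards No.8 was not stable. Of 13 related or marker genes that were 2-fold apart, 9 no longer were with the offset and 6 when counted from 5.67; none took the opposite sign, and Gfap and Tagln came to 0 when counted from 5.67. No paired analysis was possible because each colony has 1 array. Neither the depth of a level over background nor the spread between cultures can be given from these files.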
